A study of Mus musculus with 33 samples.

Results

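The 30 genes described here encode inflammatory cytokines, chemokines, NF-kB subunits, NF-kB inhibitors and other products of genes that NF-kB is known to activate. They were taken by gene symbol from a table of 54532 gene rows counted in 33 RNA-seq libraries of mouse mammary tumours, and all 30 symbols were found. Tumours had been transplanted into mice that received vehicle or RP-6306, a drug that blocks PKMYT1 (this kinase restrains CDK1 by phosphorylating it). Titles with the suffix _7 form 1 set, with vehicle in 3 tumours (VEH_7) and RP-6306 at 20 mg/kg in 4 (M20_7). In the set without that suffix, 4 tumours had received vehicle (VEH) and 11 RP-6306 at the same labelled dose (MYT). The groups titled SPON (n = 5) and WT (n = 5) were untreated. Every sample carries FVB as its genotype, and its labels name no tumour line, transgene, age or treatment period and do not explain the suffix. The design text mentions tumours of cyclin E transgenic mice and PyMT tumours without tying either to a title. A further library, whose title and treatment field contradict each other, entered no group, so 32 libraries in 6 groups were compared.

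NF-kB is a family of transcription factors held in the cytoplasm by inhibitor proteins until a signal such as TNF, IL-1 or a microbial product leads to degradation of the inhibitor. The freed dimers enter the nucleus and activate genes for cytokines, chemokines, adhesion molecules and survival factors. They also activate genes for their own inhibitors, which end the response. In tumours these genes are used by cancer cells, macrophages, fibroblasts, endothelial cells and neutrophils alike, and several of the chemokines draw further white blood cells into the tissue.

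Promoter sequence was looked up because several of these genes lie side by side in the genome and are read here as groups. In RefSeq promoters (GRCm38.p6), 21 of the 30 genes had an entry, and 8 of the 21 (38.1%) had a match to the NF-kB consensus on either strand within the 250 bases before a transcription start. Among all 27025 genes with an entry the share was 4.5%. Those 8 were Il6, Cxcl1, Cxcl2, Cxcl3, Ccl20, Nfkbia, Nfkb2 and Tnfaip3. The 30 genes were chosen in part as known NF-kB targets, so their higher share is not evidence from these data. Cxcl1, Cxcl2 and Cxcl3 are shown because these neutrophil chemokine genes, neighbours on chromosome 5, hold the same 11 bases, which match on both strands. Ccl20 and Nfkbia are shown as a chemokine and an inhibitor whose values are given below. Capitals mark the match, and each sequence runs 5′ to 3′ on the gene's own strand. The windows are chr5:90891139-90891219 (plus strand) for Cxcl1, chr5:90903767-90903847 (plus) for Cxcl2, chr5:90785993-90786073 (plus) for Cxcl3, chr1:83116651-83116730 (plus) for Ccl20 and chr12:55492648-55492711 (minus) for Nfkbia.
Cxcl1: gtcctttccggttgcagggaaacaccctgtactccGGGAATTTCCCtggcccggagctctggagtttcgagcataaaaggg
Cxcl2: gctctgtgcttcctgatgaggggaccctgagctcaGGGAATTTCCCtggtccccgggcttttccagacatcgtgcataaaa
Cxcl3: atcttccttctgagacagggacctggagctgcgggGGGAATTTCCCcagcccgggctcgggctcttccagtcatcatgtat
Ccl20: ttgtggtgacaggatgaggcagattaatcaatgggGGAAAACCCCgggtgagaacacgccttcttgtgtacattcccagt
Nfkbia: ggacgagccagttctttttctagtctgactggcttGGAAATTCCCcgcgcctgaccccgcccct
The match ends 61 bases before the start of Cxcl1, 87 before that of Cxcl2 and 63 before that of Cxcl3. It ends 71 bases before the start of Ccl20 and 20 before that of Nfkbia. A match describes these letters only, and binding was not measured.

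Library totals ran from 26517748 to 34637096 counts in the set titled _7 and from 13701115 to 20105407 in the other groups, which sets the precision for the low genes below. The 30 genes together held 0.025% to 0.187% of a library's counts. Levels are given as CPM (a gene's counts scaled to a common library size with TMM) for 1 gene across samples, and as RPKM (the same per kilobase of exon) where genes are set against each other. The libraries differed in markers of other cell types, and these values stand beside the results they moved with. Summed CPM of 14 macrophage and monocyte markers ran from 3780 to 5710 in the vehicle groups and from 4140 to 5120 in M20_7. It ran from 1010 to 2400 in MYT, 442 to 1130 in SPON and 257 to 479 in WT. The sum of 11 fibroblast markers ran from 12000 to 22400 in VEH_7, M20_7 and VEH, from 1040 to 5070 in MYT and from 843 to 2550 in SPON and WT. Epithelial markers (13 genes) ran the other way, from 29.8 to 102 in VEH_7, 59.1 to 89.8 in M20_7, 625 to 1860 in VEH and 4440 to 12900 in MYT, SPON and WT. By these markers the tumours titled _7 held little epithelial RNA. In RNA from whole tumours, fewer cells of a type and less RNA per cell cannot be told apart.

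**Figure D1:**
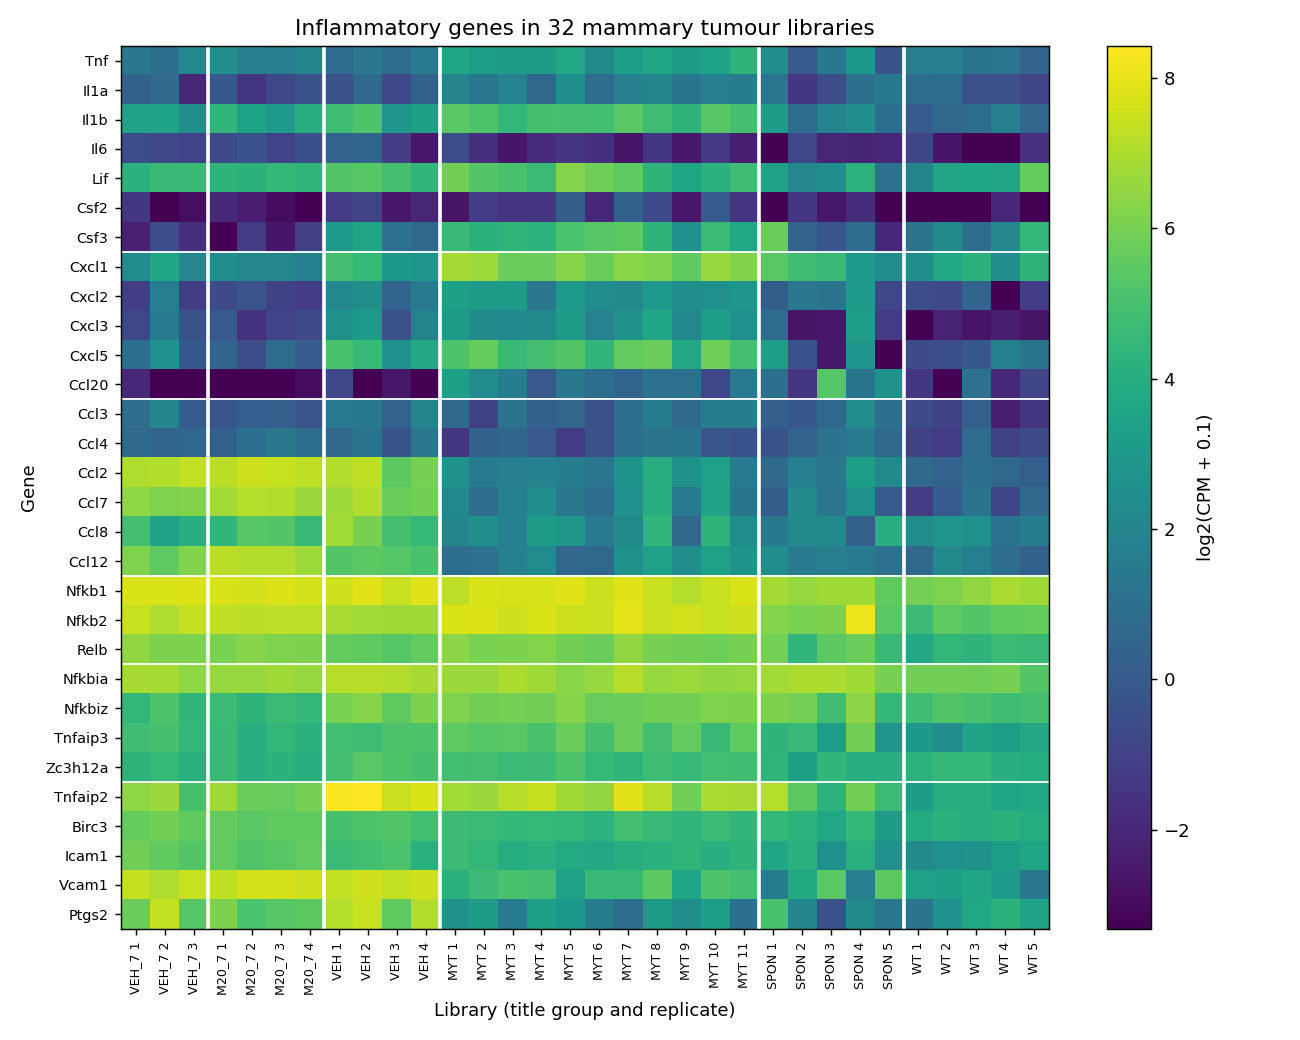
Level of each of the 30 genes (rows) in each of the 32 libraries (columns, by group and replicate), as log2(CPM + 0.1) on the colour scale. White lines separate groups and roles. The monocyte chemokines Ccl2, Ccl7 and Ccl12 are bright in VEH_7, M20_7 and VEH and dark in MYT, SPON and WT, while Cxcl1 is bright across MYT and the brightest Csf3 value is that of SPON replicate 1.

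The most abundant of these transcripts per unit length differed between groups. In VEH the highest mean RPKM belonged to Ccl8 (113 ± 79.4, SD, n = 4), Ccl7 (111 ± 47.8), Ccl2 (88 ± 47.3) and Nfkbia (84 ± 6.51), and these neighbours in the order did not differ beyond their spread. In MYT it belonged to Nfkbia (64.7 ± 10.8, SD, n = 11), followed by Nfkb2 (43.3 ± 5.26) and Cxcl1 (40.2 ± 11.9), with Ccl2 at 5.03 ± 3.61. Nfkbia also led in SPON (66.2 ± 15.3, n = 5) and WT (35.4 ± 6.43, n = 5). Ccl12 led in M20_7 at 241 ± 35.6 (n = 4), and Ccl2 (126 ± 14.9) and Ccl12 (118 ± 28.4) led in VEH_7 (n = 3). At the low end, Il6, an activator of acute-phase responses, stayed at or below 1.3 CPM in all 32 libraries, and Csf2, the granulocyte-macrophage growth factor, at or below 1.15 CPM.

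In the set without the suffix, MYT (RP-6306) and VEH (vehicle) differed in opposite directions for different roles. Their epithelial marker sums were also apart, at 4660 to 12900 CPM in MYT and 625 to 1860 in VEH. The labels name no tumour line, so drug and tumour line cannot be told apart as sources of these differences. Tnf, Il1a, the neutrophil growth factor gene Csf3 and 3 of 4 chemokines that act on neutrophils (Cxcl1, Cxcl2 and Cxcl5) were higher in MYT, though the Cxcl2 and Cxcl5 calls were lost without single libraries. The monocyte chemokines Ccl2, Ccl7, Ccl8 and Ccl12, the adhesion genes Vcam1 and Icam1 and the prostaglandin synthase gene Ptgs2 were lower. Of the 28 genes tested, 9 were higher and 11 lower at an adjusted p under 0.05 (edgeR's quasi-likelihood test, adjusted by Benjamini-Hochberg over 16021 genes). Of all genes tested, 30.5% were called higher and 29.0% lower, so the shares among the 28 stand on a high background. The share of all genes whose ranges do not overlap was not counted in any comparison, so separation of groups is description only. The median log2 fold change of the 28 genes was -0.06, beside 0.04 over all genes. Il6 and Csf2 were too low to be tested.

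Tnf, the cytokine that gives the pathway its best known trigger, was higher in every MYT library than in any VEH library. The VEH libraries had 1.63, 2.53, 1.73 and 2.71 CPM, and the 11 MYT libraries ran from 4.58 over a median of 9.61 to 20.1. The log2 fold change was 2.32 ± 0.31 (SE, adjusted p = 7.97e-06), or 4.98-fold. Il1a, a ligand of the IL-1 receptor released by damaged cells, had 0.653, 1.52, 0.483 and 1.14 CPM in VEH and 1.48 to 5.67 in MYT (median 3.24). Its ranges overlapped at the edge, and the difference was 1.71 ± 0.38 on the log2 scale (adjusted p = 0.000953). A transcript on the opposite strand (Gm14023) overlaps 11.2% of the Il1a exon length, and it is not stated whether counting used strand. Il1b, the other IL-1, did not pass (0.68 ± 0.33, adjusted p = 0.0835): VEH replicates 1 and 2 had 27.2 and 36.2 CPM, within the MYT range of 20 to 42.8, and replicates 3 and 4 had 7.11 and 10.1. Without VEH replicate 2 its difference was 1.11 (adjusted p = 0.0108), and without VEH replicates 1 and 2 it was 1.92 (adjusted p = 8.27e-05). Lif, a cytokine of the IL-6 family, had 20.8 to 40.9 CPM in VEH and 11.9 to 76.7 in MYT and did not pass (0.20 ± 0.38).

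Of the 4 chemokines that attract neutrophils through the receptor CXCR2, Cxcl1, Cxcl2 and Cxcl5 were higher in MYT. Cxcl1 had 30.9, 23, 7.67 and 7.07 CPM in VEH and 47 to 113 in MYT (median 72.2), with no overlap, and its log2 fold change was 2.14 ± 0.37 (adjusted p = 9.53e-05). Cxcl2 had 4.44, 5.56, 1.31 and 2.86 CPM in VEH and 2.53 to 9.96 in MYT (median 7), a difference of 0.94 ± 0.35 (adjusted p = 0.0293). Cxcl5 had 32.6, 23.1, 6.01 and 13.7 CPM in VEH and 13.7 to 57 in MYT (median 34.9), a difference of 0.96 ± 0.39 (adjusted p = 0.0438). These Cxcl2 and Cxcl5 ranges overlapped, and both calls depended on single libraries. Cxcl2 was lost without VEH replicate 3 (0.67, adjusted p = 0.108) or 4 (0.85, adjusted p = 0.0858). Cxcl5 was lost without VEH replicate 2, 3 or 4 or without MYT replicate 1, 2, 5, 7, 8 or 10, with adjusted p from 0.053 to 0.142. Cxcl3 did not pass (0.48 ± 0.43), with 6.33, 7.72, 0.691 and 3.86 CPM in VEH and 3.57 to 11.7 in MYT. Without VEH replicates 1 and 2 its difference was 1.53 (adjusted p = 0.0327). Reads of Cxcl2 and Cxcl3 could be confused in part, since 5.84% of the 50-base stretches in Cxcl2 transcripts and 4.29% of those in Cxcl3 transcripts occur in transcripts of other genes, the other of this pair among them.

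Csf3, the growth factor for neutrophil production, had 7.9, 11.5, 2 and 1.43 CPM in VEH and 6.09 to 44.4 in MYT (median 20.3). VEH replicates 1 and 2 lay within the MYT range and replicates 3 and 4 below it, and the log2 fold change was 2.09 ± 0.53 (adjusted p = 0.00281). Ccl20, the ligand of CCR6 on dendritic and T helper cells, had 8 counts in all of VEH, with 0.457, 0, 0.0691 and 0 CPM, and 0.48 to 9.85 CPM in MYT (median 2.03). The groups did not overlap, and the difference was 4.32 ± 0.94 (adjusted p = 0.000824). Without VEH replicate 1, which held most of the VEH counts, it was 6.54 (adjusted p = 0.000349). Neutrophil markers moved with these genes. Of 12, 8 could be tested, and 5 were higher (S100a8, S100a9, Csf3r, Cxcr2 and Stfa2l1) and 1 lower (Mmp8). Their summed level was 74.2, 82.1, 16.4 and 61.3 CPM in VEH and 101 to 221 in MYT, and each of the 12 had counts in both groups. Ly6g, Camp, Elane and Mpo were too low to be tested. The epithelial markers moved the same way, with 12 of 13 higher. The part of either in the result was not tested.

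**Figure D2:**
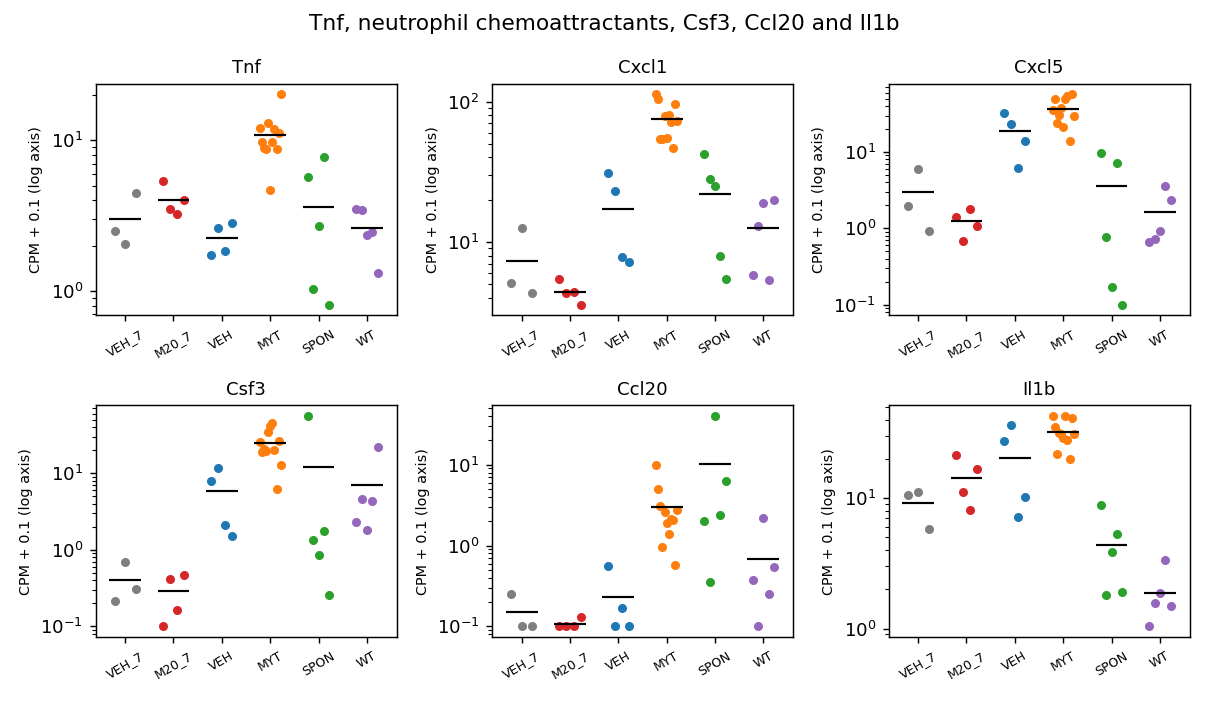
CPM + 0.1 on a log axis for Tnf, Cxcl1, Cxcl5, Csf3, Ccl20 and Il1b in the 6 groups, with 1 point per library and a line at the group mean. MYT lies above VEH with no overlap for Tnf, Cxcl1 and Ccl20, and the SPON points are widely spread, with Csf3 between 0.158 and 55.8 CPM.

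The monocyte chemokines showed the reverse. Ccl2, Ccl7 and Ccl12, which draw monocytes through CCR2, and Ccl8 of the same gene cluster on chromosome 11 (from 82035571 at the start of Ccl2 to 82116799 at the end of Ccl8) were each lower in all 11 MYT libraries than in any VEH library. Ccl2 had 135, 156, 44.7 and 64.6 CPM in VEH and 2.31 to 15.6 in MYT (median 3.46), a log2 fold change of -4.12 ± 0.42 (adjusted p = 4.49e-07), or 17.4-fold. Ccl7 had 104, 136, 55.5 and 60.6 CPM in VEH and 1.71 to 15.6 in MYT (median 3.34), a difference of -4.11 ± 0.46 (adjusted p = 1.08e-06). For both genes VEH replicates 1 and 2 were higher than 3 and 4. Ccl8 had 112, 64.8, 30.7 and 23.3 CPM in VEH and 1.57 to 21.4 in MYT (median 5.1), a difference of -2.91 ± 0.52 (adjusted p = 0.000133). Ccl12 was even across VEH (39.2, 44, 39.9 and 33.5 CPM) and had 1.39 to 10.6 in MYT (median 4.94), a difference of -2.98 ± 0.42 (adjusted p = 1.31e-05). Within MYT the highest values of Ccl2, Ccl7, Ccl8 and Ccl12 were in replicates 8 and 10, with Ccl2 at 15.6 and 10.4 CPM. These replicates also had the highest fibroblast marker sums of the group, 5060 and 5070 CPM, and macrophage sums of 2400 and 1690 CPM. Replicate 7 had a macrophage sum of 2390 CPM and the lowest fibroblast sum, 1040 CPM. Its Ccl2 (6.71 CPM), Ccl7 (6.01 CPM) and Ccl12 (6.39 CPM) were above the MYT medians and its Ccl8 (4.79 CPM) was below. Replicate 4, next in fibroblast sum after 8 and 10 at 3650 CPM, had Ccl2 at 3.46 and Ccl8 at 8.78 CPM. Replicate 9 had the lowest macrophage sum, 1010 CPM, and a fibroblast sum of 1620 CPM. Its Ccl2 (6.43 CPM) and Ccl12 (5.4 CPM) were above the MYT medians, and its Ccl7 (2.8 CPM) and Ccl8 (1.57 CPM) below. Replicate 11, with sums of 1160 (macrophage) and 1350 CPM (fibroblast), had Ccl12 at 6.66 and Ccl2 at 2.72 CPM. Macrophage and monocyte markers fell between the groups, with 13 of 14 lower and Ly6c2 not called, as did fibroblast markers with 10 of 11 lower. All 14 macrophage markers had counts in MYT, and the part of these cells in the fall was not tested. Ccl3 and Ccl4, chemokines made by activated macrophages and lymphocytes, did not pass. Ccl3 had 1.24 to 3.93 CPM in VEH and 0.406 to 3.01 in MYT (-0.54 ± 0.42), and Ccl4 0.691 to 2.43 and 0.278 to 2.26 (-0.59 ± 0.49).

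**Figure D3:**
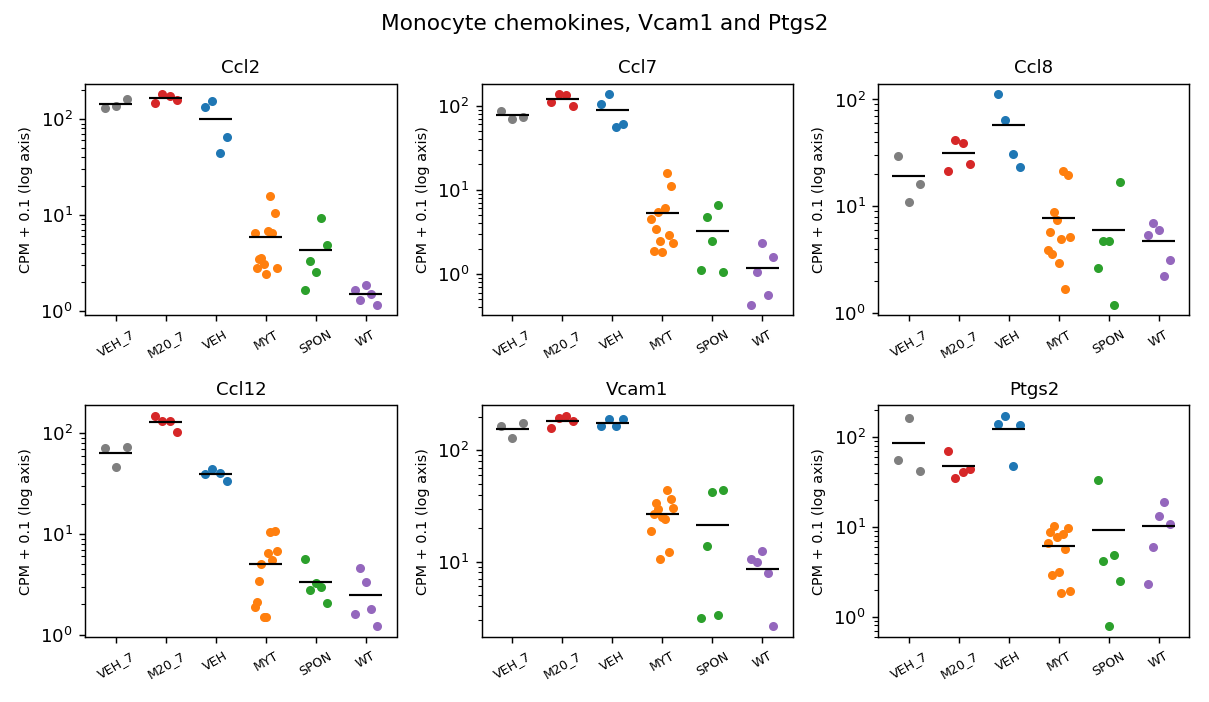
CPM + 0.1 on a log axis for Ccl2, Ccl7, Ccl8, Ccl12, Vcam1 and Ptgs2 in the 6 groups, with 1 point per library and a line at the group mean. For these 6 genes each MYT library lies below each VEH library, and M20_7 lies above VEH_7 without overlap for Ccl7 and Ccl12.

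Among the subunit genes described here, Nfkb2 and Relb of the non-canonical branch were higher in MYT. The rise was not particular to that branch. Of the subunit genes outside the described set, Rela was also higher (0.56 ± 0.11, adjusted p = 0.000448) and Rel was lower (-0.33 ± 0.14, adjusted p = 0.0429). Nfkb2, which encodes p100, the precursor of p52, had 123, 111, 109 and 108 CPM in VEH and 174 to 249 in MYT (median 189), a log2 fold change of 0.82 ± 0.11 (adjusted p = 6.76e-06). Relb, the usual partner of p52, had 49.6, 46.9, 39.9 and 49.2 CPM in VEH and 53.9 to 88.8 in MYT (median 65.5), a difference of 0.55 ± 0.13 (adjusted p = 0.0014). Neither gene's groups overlapped. Nfkb1, which encodes p105, the precursor of p50, had 192, 239, 174 and 231 CPM in VEH and 140 to 237 in MYT (median 207) and did not pass (-0.11 ± 0.13). Transcripts on the opposite strand overlap 11.6% (AC114539.1) and 6.5% (Psd) of the exon length of Nfkb2, and it is not stated whether counting used strand.

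Of the inhibitors, Nfkbia and Zc3h12a were slightly lower and Nfkbiz and Tnfaip3 did not pass. Nfkbia, the IkB-alpha that retains NF-kB in the cytoplasm, had 143, 142, 135 and 120 CPM in VEH and 80.6 to 144 in MYT (median 101), a difference of -0.37 ± 0.12 (adjusted p = 0.0145). Zc3h12a, an RNase that degrades cytokine transcripts, had 29.6, 42.6, 36.5 and 31.6 CPM in VEH and 20.7 to 34.9 in MYT (median 27.1), a difference of -0.37 ± 0.13 (adjusted p = 0.0209). Both ranges overlapped. The Nfkbia call was lost without VEH replicate 1 (adjusted p = 0.0515), and the Zc3h12a call without VEH replicate 2 (-0.26, adjusted p = 0.134) or 3 (adjusted p = 0.0632). Nfkbiz, a nuclear IkB needed for a subset of target genes, had 66.5, 75.6, 47 and 67.9 CPM in VEH and 51.4 to 78.3 in MYT (median 61.5, difference -0.02 ± 0.13). Tnfaip3, the ubiquitin-editing enzyme A20, had 29.4, 27, 34.7 and 35.3 CPM in VEH and 24.4 to 54.2 in MYT (median 43, difference 0.38 ± 0.19, adjusted p = 0.083). Without MYT replicate 10 it passed (0.44, adjusted p = 0.0275).

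Adhesion molecules and other targets were lower in MYT. Ptgs2, which encodes COX-2, the inducible enzyme of prostaglandin synthesis, had 138, 171, 47 and 135 CPM in VEH and 1.73 to 10.1 in MYT (median 6.51). At -4.36 ± 0.39 on the log2 scale (20.5-fold, adjusted p = 1.14e-07) it had the largest fall of the 28. Vcam1, which holds leukocytes carrying the integrin of Itga4, had 165, 190, 165 and 190 CPM in VEH and 10.5 to 44.1 in MYT (median 26.7), a difference of -2.74 ± 0.25 (adjusted p = 1.26e-07). The groups did not overlap for either gene. Icam1, the ligand of leukocyte beta-2 integrins, had 25.2, 28.7, 33.7 and 17.4 CPM in VEH and 13.4 to 26.3 in MYT (median 17.3, difference -0.53 ± 0.18, adjusted p = 0.0169). This call was lost without VEH replicate 2 (adjusted p = 0.0591) or 3 (adjusted p = 0.112), and 11.7% of the Icam1 exon length is overlapped by an antisense gene. Tnfaip2, a TNF-induced gene, had 313, 343, 176 and 215 CPM in VEH and 59.1 to 236 in MYT (median 118, difference -1.04 ± 0.25, adjusted p = 0.00165). Birc3, which encodes the ubiquitin ligase and survival factor cIAP2, had 31.9, 35.8, 37.6 and 28.7 CPM in VEH and 19.5 to 30.1 in MYT (median 23.5, difference -0.49 ± 0.12, adjusted p = 0.00214). Ranges overlapped for Icam1, Tnfaip2 and Birc3. Endothelial markers, all 10 lower, fell along with the adhesion genes: their sum was 449 to 620 CPM in VEH and 152 to 307 in MYT, and their part in the result was not tested.

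VEH replicates 1 and 2 stood apart from 3 and 4 in several of these genes, so the counts were also taken without them. Of all 16646 genes tested then, 3829 were higher and 3796 lower, beside 4883 and 4648 of 16021 with every library. Among the members, 11 were higher, with Il1b and Cxcl3 added, and 7 were lower. The 4 that no longer passed were Nfkbia (-0.28, adjusted p = 0.184), Tnfaip2 (-0.61, adjusted p = 0.116), Icam1 (-0.48, adjusted p = 0.127) and Zc3h12a (-0.31, adjusted p = 0.144). Tnf, Il1a, Cxcl1, Ccl20, Nfkb2 and Relb stayed higher, and Ccl2, Ccl7, Ccl8, Ccl12, Birc3, Vcam1 and Ptgs2 stayed lower, under each scaling, filter, tool and left-out library that was run.

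Other genes of the pathway were called in both directions, beside 30.5% higher and 29.0% lower of all 16021 genes tested. Of 6 further subunits and inhibitors, 4 were higher and 2 lower in MYT, among them the inhibitor gene Nfkbib (0.96 ± 0.11, adjusted p = 1.1e-06), the coactivator Bcl3 (0.84 ± 0.13), the subunit Rela (0.56 ± 0.11) and the nuclear IkB gene Nfkbid (-1.04 ± 0.31). Of 32 kinases, adaptors and ubiquitin enzymes upstream of NF-kB, 7 were higher and 9 lower, with Traf5 at -2.72 ± 0.31, Irak4 at -0.84 ± 0.12, Tax1bp1 at 0.91 ± 0.14 and Traf2 at 0.50 ± 0.09. Of 31 receptors, adaptors and integrins for these cytokines, 29 could be tested, and 7 were higher and 15 lower, with a median of -0.40. The receptor genes Il6ra (-1.33 ± 0.11) and Ccr1 (-1.46 ± 0.16) and the leukocyte integrins Itgam (-1.71 ± 0.19) and Itgb2 (-1.48 ± 0.18) fell. Itgam is also among the 14 macrophage markers. Of 32 further target genes, 30 could be tested, and 11 were higher and 9 lower. Mmp9, a matrix metalloproteinase, fell by 5.93 ± 0.32 on the log2 scale (adjusted p = 8.36e-10), and the protease gene Plau (-2.30 ± 0.22), the macrophage growth factor Csf1 (-1.22 ± 0.13) and Ninj1 (-0.90 ± 0.14) fell as well.

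In the set titled _7 no member passed the test between M20_7 and VEH_7. Of 27 genes tested 0 were called, as were 0% of all 16699 genes in edgeR's test, and the smallest adjusted p of any gene was 0.113. At an unadjusted p under 0.05 there were 4 members and 1033 genes. The median log2 fold change of the 27 was -0.08, beside 0.01 over all genes. Ccl20, Csf3 and Csf2 were too low to be tested. DESeq2 called 2 members, limma voom 0, and edgeR without the filter on low counts 1.

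The 4 members under an unadjusted 0.05 were Ccl12, Ccl7, Ccl3 and Tnfaip3. Ccl12 had 71.4, 45.9 and 73 CPM in VEH_7 and 149, 133, 133 and 103 in M20_7, a log2 difference of 1.03 ± 0.18 (adjusted p = 0.545). Ccl7 had 86.8, 70.1 and 72.4 CPM in VEH_7 and 111, 137, 134 and 100 in M20_7, a difference of 0.66 ± 0.14 (adjusted p = 0.662). Each M20_7 library exceeded each VEH_7 library in both genes. How many of all genes separate in this way was not counted, so the separation is description only. DESeq2 gave an adjusted p of 0.000188 for Ccl12 and 0.00992 for Ccl7, and edgeR without the filter gave 0.0354 for Ccl12. Ccl3 had 1.74, 4.13 and 0.93 CPM in VEH_7 and 0.756, 1.04, 1.08 and 0.745 in M20_7 (-1.32 ± 0.48), and Tnfaip3 27.8, 32.2 and 21.7 against 24.5, 16.2, 21.8 and 18.6 (-0.43 ± 0.18). These ranges overlapped, and VEH_7 replicate 2 was the highest library for both. Ccl2 was high throughout, at 130, 136 and 162 CPM in VEH_7 and 146, 182, 174 and 159 in M20_7 (0.21 ± 0.12). Subunits and inhibitors overlapped between the groups: Nfkb1 had 215, 213 and 221 CPM against 207, 198, 221 and 206, Nfkb2 171, 130 and 166 against 155, 147, 151 and 151, and Nfkbia 120, 115 and 84.6 against 99.1, 98, 107 and 99. No gene of the 4 pathway lists was called in this set, with list medians between -0.13 and 0.11. Macrophage marker sums overlapped (4810 to 5710 CPM in VEH_7, 4140 to 5120 in M20_7), and no marker of the 8 lists was called.

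The fitted log2 difference between drug and vehicle was unequal in the 2 sets for 15 of the 30 genes. In the interaction term of 1 fit over VEH_7, M20_7, VEH and MYT, 9 members had a higher log2 fold change in the set without the suffix and 6 a lower one, beside 17.0% and 18.9% of all 17095 genes tested. The sets differ in title, depth and epithelial markers at once, and the labels do not give the treatment period of either, so these cannot be told apart as sources of the difference. The higher ones were Tnf (1.89 ± 0.46, adjusted p = 0.00268), Cxcl1 (2.89 ± 0.56, adjusted p = 0.000388), Nfkb2 (0.87 ± 0.16, adjusted p = 0.00024), Il1a (2.44), Cxcl2 (2.33), Cxcl5 (2.30), Ccl20 (6.27), Relb (0.65) and Tnfaip3 (0.82). The lower ones were Ccl7 (-4.77 ± 0.73, adjusted p = 4.06e-05), Ccl2 (-4.33 ± 0.67, adjusted p = 4.16e-05), Ccl12 (-4.01 ± 0.65, adjusted p = 7.39e-05), Ccl8 (-3.65 ± 0.88, adjusted p = 0.0026), Ptgs2 (-3.48 ± 0.71, adjusted p = 0.000621) and Vcam1 (-2.97 ± 0.41, adjusted p = 1.23e-05). All 6 lower ones stayed lower without each library in turn. In 1 fit over all 32 libraries, Il1a and Cxcl1 were the only 2 of the 9 that still passed, with Tnf at an adjusted p of 0.0501 and Nfkb2 at 0.187, and all 6 lower ones passed. VEH_7 replicate 2 had 3.29 CPM of Cxcl2, against 0.341 and 0.345 in the other VEH_7 libraries, and without it the difference was 0.37 for Cxcl2 (adjusted p = 0.717), 1.19 for Cxcl5 (adjusted p = 0.224), 1.90 for Il1a (adjusted p = 0.0639) and 2.24 for Cxcl1 (adjusted p = 0.00376). Ptgs2, at 161 CPM in that library against 55.8 and 41.4, was at -4.32 without it. The Ccl20 value rests on 4 counts in VEH_7 and 1 in M20_7. It was 3.14 (adjusted p = 0.939) without VEH_7 replicate 1, 5.96 (adjusted p = 0.0504) without M20_7 replicate 2, 7.43 without M20_7 replicate 4 and 8.53 without VEH replicate 1. Relb lost its call without VEH_7 replicate 1 (adjusted p = 0.0613), and Tnfaip3 lost its call without VEH_7 replicate 1 or 2, M20_7 replicate 2 or 4 or VEH replicate 1 or 2 (adjusted p from 0.0569 to 0.108). Of the members not called, Cxcl3 (1.81 ± 0.79, adjusted p = 0.0768) passed without VEH_7 replicate 1 (adjusted p = 0.0459) or VEH replicate 2 (adjusted p = 0.0483). Csf3 (2.74 ± 1.12, adjusted p = 0.0594) passed without M20_7 replicate 4, VEH replicate 2 or MYT replicate 9 (adjusted p from 0.0258 to 0.0468). Il6 (-1.90 ± 0.84, adjusted p = 0.0814) passed without VEH replicate 4 (adjusted p = 0.0231) or MYT replicate 1 (adjusted p = 0.0315). DESeq2 called Cxcl3 (adjusted p = 0.0462) and Csf3 (adjusted p = 0.0221) on all libraries. In the same fit the macrophage list had 9 of 14 lower, the fibroblast list 10 of 11 lower and the endothelial list 9 of 10 lower (median -1.56). The epithelial list had 8 of 13 higher and the neutrophil list 4 higher of 9 tested, and their part in these differences was not tested.

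**Figure D4:**
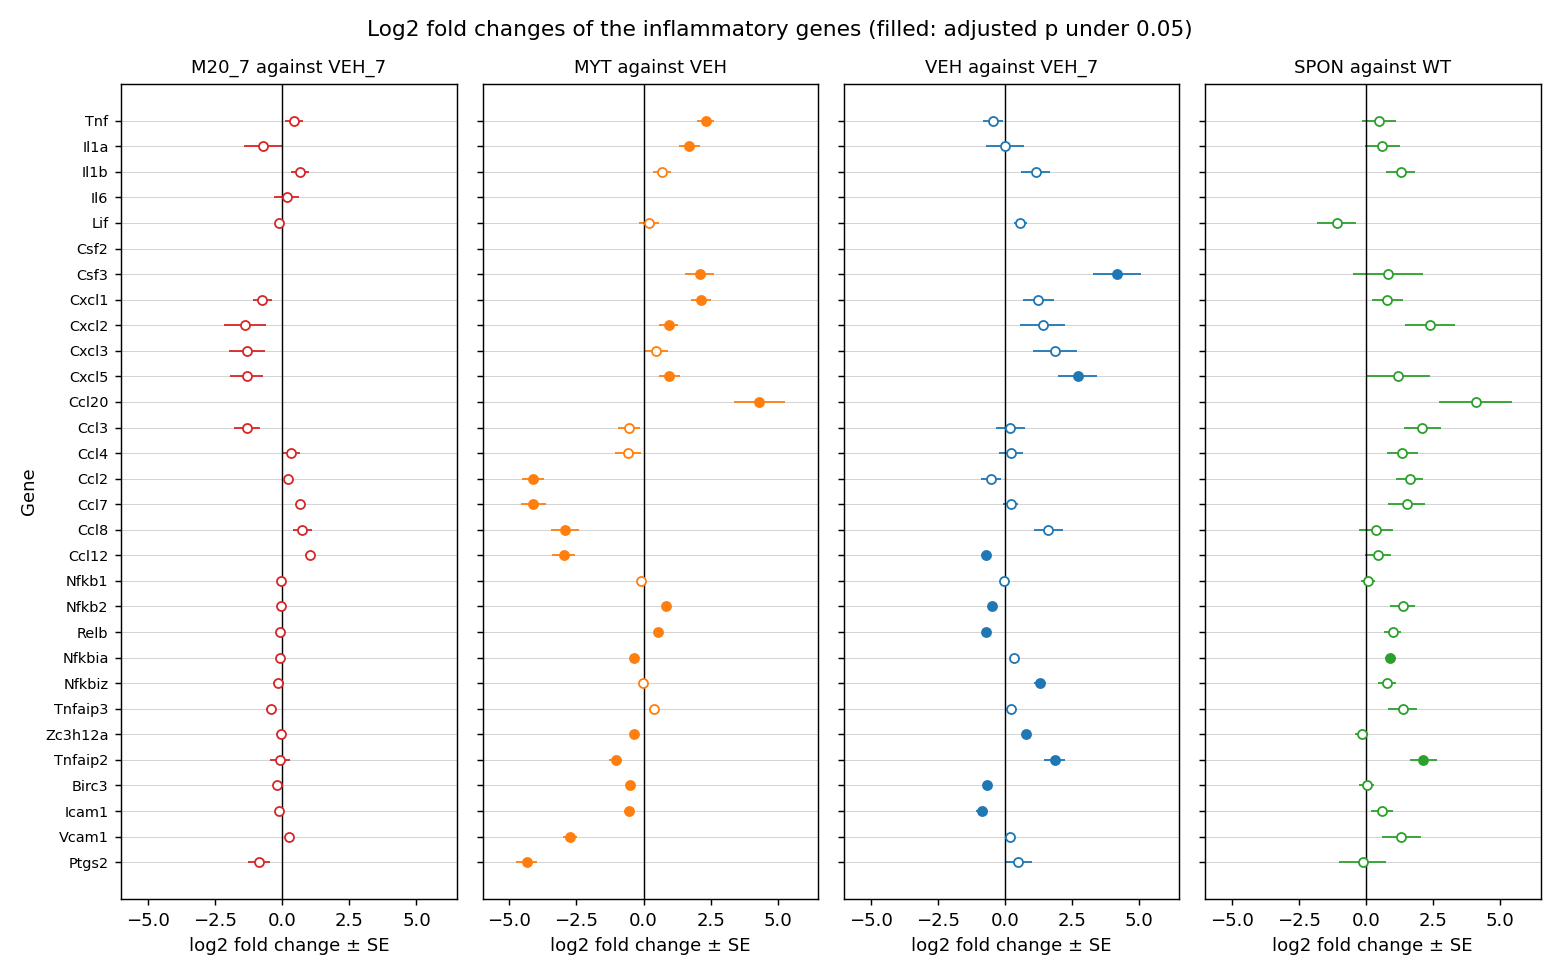
Log2 fold change of each gene (points) with its standard error (bars) in 4 comparisons, where filled points have an adjusted p under 0.05 in edgeR's test and a gene with no point was not tested. The set without the suffix (MYT against VEH) spans -4.36 for Ptgs2 to 4.32 for Ccl20, whereas no point is filled for M20_7 against VEH_7.

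Genes of the pathway lists were called in both directions between the sets too, beside 17.0% higher and 18.9% lower of all 17095 genes. Bcl3 (1.09 ± 0.18), Nfkbib (0.89 ± 0.17) and Rela (0.68 ± 0.17) had higher log2 fold changes in the set without the suffix and Nfkbid (-1.43 ± 0.48) a lower one, which makes 3 higher and 1 lower of 6. Nfkbid lost its call without VEH_7 replicate 2 (adjusted p = 0.0662), and Traf2, named next, without VEH_7 replicate 3 (adjusted p = 0.0644). Of the 32 upstream genes 5 were higher and 6 lower, including Traf5 (-2.90 ± 0.48), Irak1 (-0.75 ± 0.22), Tax1bp1 (0.90 ± 0.19) and Traf2 (0.46 ± 0.15). Of 30 tested receptor genes 4 were higher and 11 lower, including Lifr (2.11 ± 0.29), Itgam (-1.61 ± 0.30), Il6ra (-1.03 ± 0.19) and Itgb2 (-1.31 ± 0.28). Of 31 tested target genes 9 were higher and 6 lower, including Mmp9 (-5.45 ± 0.54), Csf1 (-1.59 ± 0.23), Plau (-2.56 ± 0.38) and the syndecan gene Sdc4 (1.34 ± 0.32).

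Vehicle tumours of the sets also differed from each other. Of 27 genes tested between VEH and VEH_7, 5 were higher and 5 lower in VEH, beside 15.4% higher and 15.6% lower of all 15555 genes. This comparison shares its libraries with those above. Csf3 had 0.114, 0.586 and 0.207 CPM in VEH_7 and at least 1.43 in VEH, a difference of 4.19 ± 0.90 (adjusted p = 0.00812) that was 5.09 without VEH_7 replicate 2. Cxcl5 had 1.86, 5.86 and 0.827 CPM in VEH_7 and at least 6.01 in VEH, a difference of 2.72 ± 0.73 (adjusted p = 0.0205). The Cxcl5 call was lost without VEH_7 replicate 1 (2.49, adjusted p = 0.0796) or 3 (2.28, adjusted p = 0.0582), and the value was 3.82 without VEH_7 replicate 2. Cxcl2 and Cxcl3 did not pass with all libraries in edgeR's test, and did without VEH_7 replicate 2 (3.35 and 3, adjusted p = 0.0108 and 0.0398). Cxcl3 also passed without VEH replicate 3 (2.23, adjusted p = 0.03) and with DESeq2 (1.89, adjusted p = 0.0334). Tnfaip2 (85, 100 and 31.8 CPM in VEH_7, difference 1.86 ± 0.39), Nfkbiz (21.8, 35.8 and 20.8 CPM, 1.30 ± 0.23) and Zc3h12a (19.7, 23.1 and 17.7 CPM, 0.80 ± 0.17) were higher in each VEH library than in any VEH_7 library, with adjusted p of 0.00742, 0.00367 and 0.0075.

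Ccl12, Nfkb2, Relb, Birc3 and Icam1 were lower in VEH than in VEH_7, without overlap. The share of all genes that separate like these, or like Tnfaip2, Nfkbiz and Zc3h12a, was not counted. Relb had 88.6, 69.7 and 68.4 CPM in VEH_7 (difference -0.70 ± 0.14, adjusted p = 0.00541) and Birc3 50.6, 60.5 and 47.5 (-0.65 ± 0.14, adjusted p = 0.00881). Icam1 had 59.1, 46.6 and 38.2 CPM in VEH_7 (-0.86 ± 0.23, adjusted p = 0.0198). Ccl12 differed by -0.69 ± 0.18 (adjusted p = 0.0179) and Nfkb2 by -0.46 ± 0.13 (adjusted p = 0.0241). Without VEH_7 replicate 1 the calls of Ccl12 (adjusted p = 0.0715), Nfkb2 (adjusted p = 0.0937) and Icam1 (adjusted p = 0.0842) were lost. Ccl12 was also lost without VEH_7 replicate 3 (adjusted p = 0.0724), and Nfkb2 without VEH_7 replicate 3 or VEH replicate 2 or 4 (adjusted p from 0.0507 to 0.0835). Il1b, Lif and Ccl8 did not pass with all libraries in edgeR's test. Il1b passed without VEH replicate 3 (1.44) and with DESeq2 (adjusted p = 0.049), and Lif without VEH replicate 4 (0.74). Ccl8 passed without VEH replicate 3 (1.83) or 4 (1.88), with DESeq2 size factors (adjusted p = 0.0498), with no filter on low counts (adjusted p = 0.0147) and with DESeq2 (adjusted p = 0.0456). DESeq2 also called Cxcl1 (1.26, adjusted p = 0.0485).

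Of the neutrophil markers, 9 of 12 could be tested between the vehicle groups and 5 were higher and 1 lower in VEH, with sums of 20.5 to 35.3 CPM in VEH_7, where Ly6g and Ngp had no counts, and 16.4 to 82.1 in VEH. Epithelial markers had 6 of 13 higher in VEH, with a median of 3.84 and sums of 625 to 1860 CPM against 29.8 to 102 in VEH_7. B cell and plasma cell markers had 2 lower of 3 tested, with sums of 3.07 to 5.66 CPM against 24 to 70.8. Macrophage markers had 1 higher and 7 lower of 14, and the part of these lists in the differences was not tested. In the pathway lists, Rel (-0.88 ± 0.12) and Rela (-0.56 ± 0.13) were lower in VEH, with 0 higher and 2 lower of 6, and Rela lost its call without VEH_7 replicate 1 (adjusted p = 0.052). Further targets had 4 higher and 8 lower of 31 tested, with Ccl5 at -2.36 ± 0.22, Cxcl10 at -2.92 ± 0.30, Slc2a6 at -3.35 ± 0.37 and Tap1 at -1.48 ± 0.18. Upstream genes had 3 higher and 2 lower of 32, with Cyld at -0.72 ± 0.14, Irak4 at 0.57 ± 0.12, Ikbkg at 0.63 ± 0.15 and Sharpin at 0.48 ± 0.12, the last lost without VEH_7 replicate 3 (adjusted p = 0.0575). Receptors had 3 higher and 9 lower of 29 tested, with Lifr at -2.26 ± 0.22, Il1r1 at -0.91 ± 0.16 and Itga4 at -0.92 ± 0.16. These list counts stand beside 15.4% higher and 15.6% lower of all 15555 genes tested.

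Between the untreated groups, most members had positive log2 fold changes for SPON over WT, the SPON tumours were uneven, and only Nfkbia and Tnfaip2 passed. Of 27 tested, 2 were higher and 0 lower, beside 4.52% higher and 3.86% lower of all 15558 genes in edgeR's test. At an unadjusted p under 0.05 there were 13 members and 4144 genes. The median log2 fold change of the 27 was 0.91, beside 0.07 over all genes. Il6, Cxcl3 and Csf2 were too low to be tested.

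Nfkbia had 110, 124, 125, 109 and 64.4 CPM in SPON and 61, 60.4, 59.1, 65.3 and 38.9 in WT, a difference of 0.91 ± 0.22 (adjusted p = 0.0288). Only SPON replicate 5 fell within the WT range. Tnfaip2 had 139, 43.7, 19.5, 58.7 and 25.2 CPM in SPON and 8.49, 15.9, 16, 12.3 and 13.2 in WT, without overlap, a difference of 2.14 ± 0.50 (adjusted p = 0.0256), and of 1.49 (adjusted p = 0.0313) without SPON replicate 1. Each of these calls was lost without any 1 of the 5 WT replicates, with adjusted p from 0.0617 to 0.0763 for Nfkbia and from 0.051 to 0.0716 for Tnfaip2. Nfkbia was also lost without SPON replicate 3 (adjusted p = 0.0572) or 4 (adjusted p = 0.0506).

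High values among the untreated tumours came from different SPON libraries for different genes. Replicate 1 had 55.8 CPM of Csf3, against 0.158 to 1.68 in the other SPON tumours and 1.72 to 21.7 in WT. Replicate 3 had 40.1 CPM of Ccl20, with 1.94, 0.258, 2.26 and 6.24 in the other SPON tumours and 0.276, 0, 2.08, 0.151 and 0.445 in WT, a difference of 4.08 ± 1.35 (adjusted p = 0.0824). Replicate 4 was highest for Cxcl2 (8.19 CPM), Cxcl3 (9.16 CPM), Ccl2 (9.29 CPM), Tnf (7.61 CPM) and Tnfaip3 (59 CPM). Nfkb2 in that library stood at 278 CPM, against 76.4, 65.8, 68.6 and 42.4 in the other SPON tumours and 26.3, 45.8, 39.1, 46.9 and 49.8 in WT (1.37 ± 0.47, adjusted p = 0.0931). Relb had 61.7, 21, 43.7, 55.2 and 24.4 CPM in SPON and 13.7, 21.9, 19.9, 25.7 and 23.7 in WT (0.99 ± 0.33, adjusted p = 0.0868) and passed without SPON replicate 2 (1.15, adjusted p = 0.0342), as did Ccl20 (4.38, adjusted p = 0.0434). Ccl2 had 1.55, 3.25, 2.45, 9.29 and 4.74 CPM in SPON and 1.06 to 1.78 in WT (1.62 ± 0.49, adjusted p = 0.0652) and passed without SPON replicate 1 (1.83, adjusted p = 0.0369). Nfkb1 did not pass (0.07 ± 0.27), with 116, 93.1, 109, 106 and 47 CPM against 62.9, 69.9, 89.5, 123 and 107. Without SPON replicates 1 and 4, 1 member passed, Vcam1 (1.96, adjusted p = 0.035), and neither Nfkbia (0.87, adjusted p = 0.059) nor Tnfaip2 (1.15, adjusted p = 0.0503) did.

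**Figure D5:**
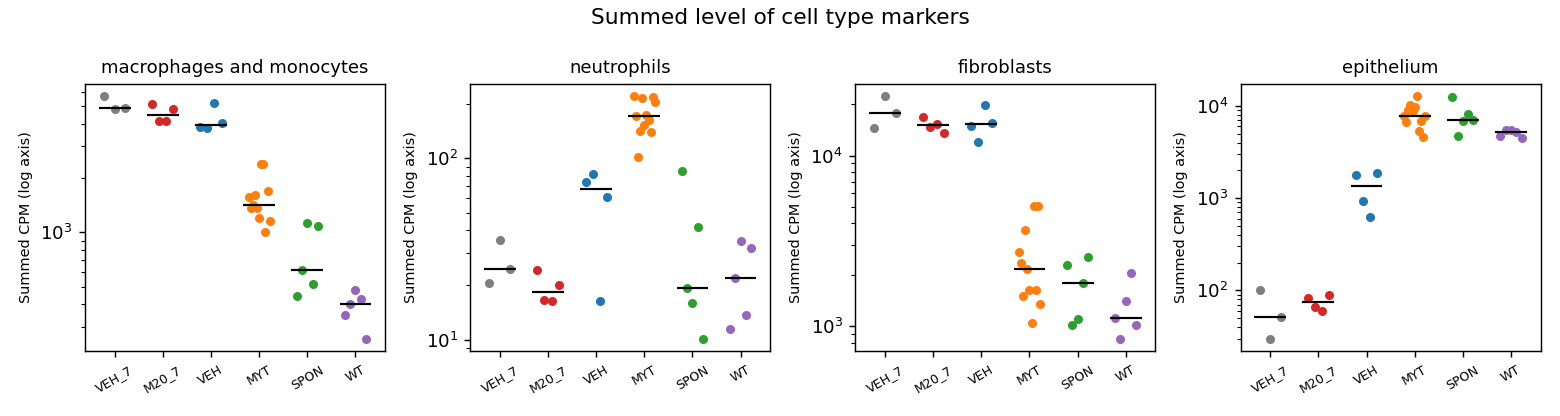
Summed CPM of markers of 4 cell types on a log axis in the 6 groups, with 1 point per library and a line at the group median. MYT lies below VEH in macrophage and fibroblast markers and above it in neutrophil and epithelial markers, and SPON reaches above WT in macrophage markers, with 442 to 1130 CPM against 257 to 479.

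Few cell type markers were called between SPON and WT, beside 4.52% higher and 3.86% lower of all 15558 genes tested. Macrophage markers had 2 higher (Mrc1 and Lyz2) of 13 tested, with sums of 442, 616, 1130, 515 and 1090 CPM in SPON and 257 to 479 in WT. Neutrophil markers had 1 higher (S100a9) of 4 tested, with sums of 84.7, 19.2, 15.9, 42 and 10.1 CPM in SPON and 11.4 to 35.1 in WT, and all 12 had counts in each group. The highest neutrophil sum was in SPON replicate 1, the library with the highest Csf3, and their part in the result was not tested. Of the pathway genes, Nfkbie (1.86 ± 0.51) was the 1 called of 6 subunits and inhibitors. Of 28 tested targets 3 were higher, Mmp9 (3.27 ± 0.81), Cxcl10 (2.44 ± 0.63) and Pdgfb (2.30 ± 0.61). Upstream genes had 2 higher of 32, Tax1bp1 (1.12 ± 0.18) and Traf2 (0.71 ± 0.20), and 1 lower, Irak3 (-2.15 ± 0.42). Receptors had 2 higher of 28 tested, the IL-1 antagonist Il1rn (2.40 ± 0.51) and Itgb2 (1.23 ± 0.34), and 1 lower, the lipopolysaccharide receptor Tlr4 (-1.50 ± 0.39). Tax1bp1 and Irak3 kept their calls without each library in turn. Il1rn was lost without WT replicate 3 (adjusted p = 0.0507), Mmp9 without SPON replicate 4 or WT replicate 1, 2, 3 or 4 (adjusted p from 0.0601 to 0.0807) and Pdgfb without those or SPON replicate 1 (adjusted p from 0.0699 to 0.103). Nfkbie, Cxcl10, Traf2, Tlr4 and Itgb2 were each lost without any 1 WT replicate and without 3 or 4 of the SPON replicates (Nfkbie and Cxcl10 replicates 1, 3 and 4, Traf2 all but replicate 2, Tlr4 1, 3 and 5, Itgb2 3, 4 and 5), with adjusted p from 0.0538 to 0.13.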

How the data were processed

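The submitters' processing notes name STAR 2.7.10a, HTSeq and edgeR with genome build GRCm38, and no role or order for them. The deposited values used are the authors' raw read counts per gene, 54532 rows in 33 sample columns (0 unused). Rows without a symbol (791) held 0.0485% of the counts and stayed under their identifiers. Counting by strand and the annotation release are not given in the sources used here. No label states that a group's samples are separate animals; the p-values therefore reflect only how these samples vary, which may be technical. Replicates were numbered in accession order.

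Each comparison was fitted on its own groups over all genes by edgeR's quasi-likelihood test (version 4.0.16, R 4.3.3) after filterByExpr and TMM scaling, with Benjamini-Hochberg adjustment over all genes tested and calls at an adjusted p under 0.05. The standard error came from the F statistic. CPM used TMM factors over the 32 grouped libraries, and RPKM the exon length in GENCODE M21 (GRCm38). Alternatives tried were scaling by DESeq2 size factors, keeping low counts, the DESeq2 1.42.0 test, limma 3.58.1 voom, 1 fit over the 32 libraries and each library left out. Leaving out SPON replicates 1 and 4, or VEH replicates 1 and 2, was chosen after seeing the data. The edgeR fits of a single pair of groups were tested on counts simulated from edgeR's own model. The fit with the interaction term was not. All 30 genes were described in every comparison, and up to 4 called genes with the smallest p were named from each pathway list, except for 1 result not reported here. The 30 genes and the lists were chosen with earlier results of these data known. Motif matches were sought in the 250 bases before each RefSeq start by the NF-kB consensus, whose letters are partly ambiguous.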

Additional observations from a re-analysis of the deposited data

Results flagged for a closer look

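In 117 combinations of a gene and a group of 4 or 5 libraries, 17 had a highest or lowest library set apart by Dixon's test. The test's rate of 1 in 20 by chance holds for normally distributed values. CPM was not log-transformed, several genes had low counts and the combinations share libraries. The 17 are therefore listed as description, without an expected number. In SPON, replicate 4 stood high for Cxcl2 (8.19 CPM, next 2.43), Cxcl3 (9.16, next 1.63), Ccl3 (4.9, next 1.9) and Nfkb2 (278, next 76.4). SPON replicate 1 stood high for Csf3 (55.8 CPM, next 1.68) and Ptgs2 (33.4, next 4.77), replicate 3 for Ccl20 (40.1, next 6.24) and replicate 5 for Ccl8 (16.9, next 4.63), and replicate 5 stood low for Nfkbia (64.4, next 109). In WT, replicate 3 stood high for Ccl4 (1.6 CPM, next 0.557) and Ccl20 (2.08, next 0.445), replicate 5 high for Csf3 (21.7, next 4.5) and Lif (50.2, next 12.4) and low for Nfkbia (38.9, next 59.1). VEH replicate 1 stood high for Ccl20 (0.457 CPM, next 0.0691) and Nfkb2 (123, next 111), and M20_7 replicate 3 for Nfkbia (107, next 99.1).

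For 15 genes the fitted log2 difference between drug and vehicle was unequal in the 2 sets by the interaction term in edgeR. The value in the set without the suffix exceeded that in the set titled _7 by 1.89 for Tnf, 2.44 for Il1a, 2.89 for Cxcl1, 2.33 for Cxcl2, 2.3 for Cxcl5, 6.27 for Ccl20, 0.87 for Nfkb2, 0.65 for Relb and 0.82 for Tnfaip3. The difference was -4.33 for Ccl2, -4.77 for Ccl7, -3.65 for Ccl8, -4.01 for Ccl12, -2.97 for Vcam1 and -3.48 for Ptgs2.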

How the results depend on the processing

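No called gene changed sign under any alternative, and among 3363 values for single genes whose call was the same under an alternative, 60 changed sign, none of them called. Members called between M20_7 and VEH_7 were 1 higher with no filter and 2 higher with DESeq2 (main 0), and all genes called were 4 higher and 2 lower, and 16 and 39. Members higher in MYT than VEH numbered 6 to 11 under the alternatives (main 9), and members lower numbered 7 without VEH replicates 1 and 2 (main 11). All genes called were 3829 higher and 3796 lower without those replicates, and 3944 and 4535 in 1 fit over the 32 libraries (main 4883 and 4648). In 1 fit over the 32 libraries Cxcl2 (adjusted p = 0.239), Cxcl5 (0.288), Icam1 (0.0679) and Csf3 (0.0805) lost their calls there, as did Cxcl5 with DESeq2 size factors (0.0504). Members higher in SPON than WT were 8 with DESeq2, 1 with limma voom, 13 in 1 fit over the 32 libraries and 1 without SPON replicates 1 and 4 (main 2), and ran from 0 to 4 without 1 library. All genes called there were 1481 higher and 1167 lower with DESeq2, 3192 and 2280 in the 1 fit, and as few as 218 and 271 without a WT library (main 703 and 600). For the difference between sets, members higher were 5 with limma voom and 2 in the 1 fit (main 9), and ran from 5 to 10 without 1 library. Calls lost with limma voom were Il1a, Cxcl2, Cxcl5 and Ccl20 (adjusted p from 0.0604 to 0.157). All genes there were 1543 and 1958 in the 1 fit (main 2914 and 3237). Members higher in VEH than VEH_7 were 9 with DESeq2 (main 5) and ran from 4 to 8 without 1 library. Members lower were 1 in the 1 fit (main 5), where Cxcl5, Ccl12, Nfkb2, Relb and Icam1 lost their calls (adjusted p from 0.0583 to 0.418), and ran from 2 to 5 without 1 library. All genes there were 1297 and 1158 in the 1 fit (main 2388 and 2429), and as few as 1559 and 1668 without VEH_7 replicate 3. Why these counts moved was not tested, except that left-out libraries leave fewer samples. Single-gene calls that changed without 1 library stand beside their values. Named pathway genes lost calls under other alternatives too. The 1 fit over the 32 libraries lost Irak4, Sharpin, Il1r1 and Itga4 between VEH and VEH_7 (adjusted p from 0.0862 to 0.135). It also lost Irak1 (0.0664) and Traf2 (0.108) for the difference between sets. Between SPON and WT, limma voom lost Nfkbie, Cxcl10, Pdgfb, Traf2 and Itgb2 (adjusted p from 0.0535 to 0.125). Keeping low counts lost Traf2 (0.0865) and Itgb2 (0.0695) there. DESeq2 size factors moved the median of all genes by at most 0.029 on the log2 scale. Low counts left Ccl20, Csf2, Csf3, Cxcl3 and Il6 untested in 1 or more comparisons, Csf3 only between M20_7 and VEH_7, the most deeply sequenced groups. No paired analysis was possible because the labels give no replicate numbers, and the numbers used here follow accession order.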
